A study of Mus musculus with 90 samples.

Results

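The aorta of female mice was compared between estrus, the phase of the estrous cycle around ovulation, and diestrus, the luteal phase in which progesterone dominates. The comparison used the 6 aorta libraries, 3 labelled estrus and 3 labelled diestrus, of the 90 libraries of the series, which covers 15 tissues. Of the 20414 genes listed, 12553 had a mean of at least 1 FPKM (fragments counted per kilobase of a transcript and corrected for the size of the library) over the 6 libraries and were tested. All mice were untreated C57BL/6 females, 10 weeks old by the sample labels, kept on a 12-h light/dark cycle, and their phase was read from stained vaginal smears. The study also used serum estrogen and progesterone levels of mice as an aid in assigning the phase. The study's methods give a younger age and the substrain C57BL/6J. Each library came from aorta frozen on dry ice after dissection, and neither the stretch of aorta taken nor the hour of dissection is given in the sources used here. The sources do not say which aorta and vein libraries came from one mouse.

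The aortic wall is built from smooth muscle cells, which contract and set the tone of the vessel, between sheets of elastin, with an endothelial lining inside and fibroblasts outside. In mice the thoracic aorta is embedded in perivascular fat that resembles brown fat, the tissue that makes heat through the uncoupling protein Ucp1. Vascular cells carry estrogen, glucocorticoid, adrenergic and angiotensin receptors, and, like most cells, run a circadian clock in which Bmal1 (Arntl) and Clock switch on the Per genes and Dbp through E-boxes.

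The balance of vessel wall, fat and muscle RNA was examined first. Estrus replicate 1 stood apart from the other 5 libraries in every marker list of wall, fat and heart muscle except endothelium and fibroblasts. The 14 smooth muscle contractile genes summed to 22726 FPKM in estrus replicate 1, to 2685 and 2837 in estrus replicates 2 and 3, and to 3802, 2666 and 2565 in diestrus replicates 1 to 3. The 6 vein libraries, for scale, spanned 2390 to 6928 FPKM. Smooth muscle actin, Acta2, was at 7925 FPKM in estrus replicate 1 and at 669 to 1152 in the others, and the contractile myosin Myh11 was at 1669 against 191 to 316.

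Elastic fibre genes were also highest in estrus replicate 1. Their sum was 2945 FPKM in estrus replicate 1 and 515 to 1045 in the other 5 libraries. Elastin itself, Eln, was at 1239, 57.4 and 74.4 FPKM in the estrus libraries and at 413, 204 and 141 in the diestrus libraries. Eln thus had its highest and its lowest values within estrus.

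Fat RNA ran the other way. The 12 white adipocyte genes summed to 1971 FPKM in estrus replicate 1 and to 12299 to 17606 in the other 5. The 10 brown adipocyte genes summed to 749 FPKM against 5835 to 9545, which is 5.72% of the median of the BAT (brown adipose tissue) libraries against 44.6% to 72.9%. Ucp1 was at 205, 2606 and 1541 FPKM in estrus and at 1019, 2896 and 2589 in diestrus, beside a mean of 4416 in BAT. The 25 genes of mitochondrial respiration summed to 4147 FPKM in estrus replicate 1 and to 19416 to 23650 in the other 5.

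Heart muscle RNA was present in each of the 6 libraries. The cardiomyocyte list summed to 458 FPKM in estrus replicate 1 and to 3269 to 6634 elsewhere, with 52.9 as the median of vein. Its most abundant members included Myl7 and Myl4, the atrial light chains, and Myl7 reached 607 to 1116 FPKM in the 5 libraries against a mean of 164 in the heart libraries. Endothelial genes, by contrast, summed to 389 to 585 FPKM and fibroblast genes to 1513 to 1875 across all 6.

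Some libraries also held genes of other organs, in lists chosen after these values were seen. Estrus replicate 1 held ovarian genes: Hsd3b1 and Cyp11a1, enzymes of steroid synthesis, were at 134 and 109.7 FPKM there and at no more than 0.79 in the other 5, and Inha, a subunit of inhibin, was at 104 against 2.44 to 4.39. The 11 ovarian genes summed to 4.68% of the ovary median in estrus replicate 1 and to at most 0.0656% elsewhere. Diestrus replicate 3 held airway genes, with the club cell secretoglobin Scgb1a1 at 1047 FPKM against at most 3.16 elsewhere, and genes of lymph node vessels, with Glycam1 at 337 FPKM against at most 0.14. Mesothelial genes were high in 3 libraries: Upk3b was at 20.9 and 25.9 FPKM in estrus replicates 2 and 3, at 0.83 in estrus replicate 1 and at 3.54 to 4.09 in diestrus, while Msln, mesothelin, was at 6.80, 8.88 and 18.4 in estrus replicates 2 and 3 and diestrus replicate 3 and at no more than 1.72 in the rest.

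**Figure D1:**
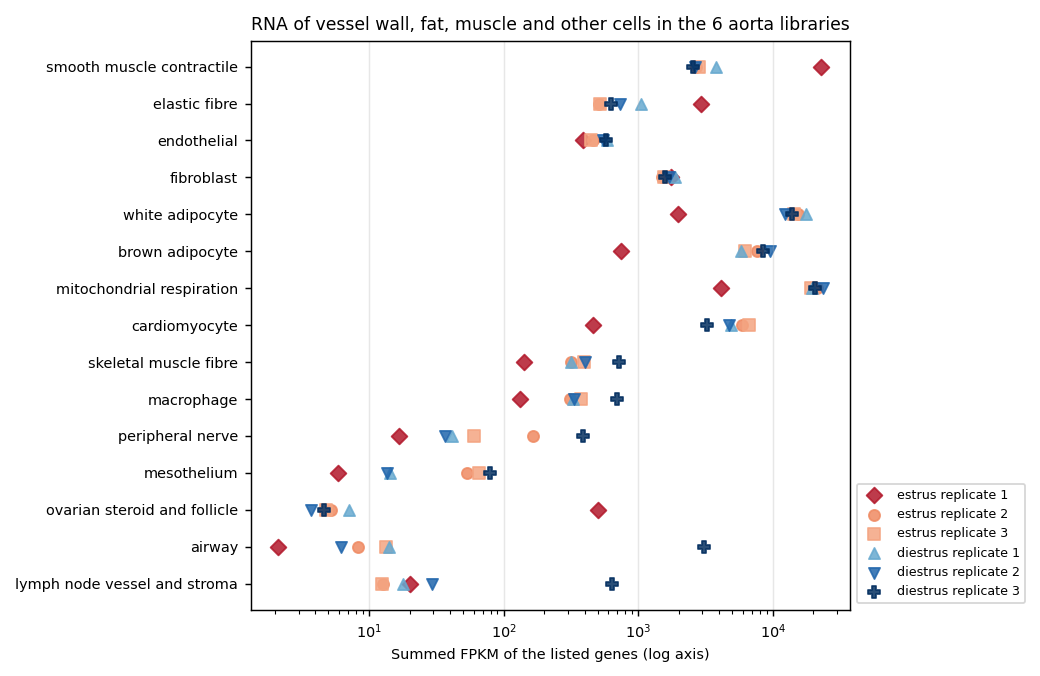
Summed FPKM (log axis) of marker lists in each of the 6 aorta libraries, one symbol per library. Estrus replicate 1 lies at 22726 for smooth muscle and at 1971 for white adipocytes, where the other 5 lie at 2565 to 3802 and 12299 to 17606, and diestrus replicate 3 is alone at 3077 for airway genes.

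Across the tested genes, the other 5 libraries correlated with each other at a Pearson's r of 0.956 to 0.988, and estrus replicate 1 correlated with them at 0.806 to 0.850. Depth was approximated at 11.6M to 12.4M fragments per library, with 11.9M in estrus replicate 1. This approximation is rough: only 54.7% to 66.4% of the low values it rests on came out as whole fragments. Fold changes below are from all 6 libraries unless a library is named as left out. In bulk tissue, fewer cells of a type and less RNA per cell cannot be told apart.

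No gene was called a DEG. Limma found 0 of 12553 genes (0%) at an adjusted p of at most 0.05 with a change of at least 1 on the log2 scale either way, the smallest adjusted p was 0.933, and 390 genes (3.11%) had an unadjusted p under 0.05, 72 of them higher (0.574%) and 318 lower (2.53%) in estrus. By size alone, 81 genes (0.645%) were higher by 1 or more on the log2 scale and 265 (2.11%) lower, a split that scaling moved: 144 and 273 after rescaling to the same sum, and 127 and 191 after quantile normalization. The 3 estrus values lay wholly above the 3 diestrus values for 300 genes (2.39%) and wholly below for 1198 (9.54%). A single fit over all 90 libraries, which takes its spread mostly from other tissues, called 21 genes higher (0.167%) and 85 lower (0.677%). With 3 libraries against 3, an exact permutation test of 1 gene cannot give a p under 0.1.

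Without estrus replicate 1, 1445 genes (11.5%) had an unadjusted p under 0.05, and limma called 1 gene (0.00797%), Upk3b, at an adjusted p of 0.0183 and a log2 fold change of 2.35. Then 71 genes (0.566%) were higher and 93 (0.741%) lower by 1 or more on the log2 scale, and 29.2% of all genes were higher by any amount, against 42.6% with all 6 libraries. Over all tested genes the median log2 fold change was then -0.11, against -0.05 with all 6 libraries. The 2 estrus libraries left are those rich in mesothelial genes. Without diestrus replicate 3 as well, 9.07% of genes had an unadjusted p under 0.05, and 5 genes (0.0398%) were called higher and 1 (0.00797%) lower. This fit was not planned and left 2 libraries per phase. The higher genes included Upk3b, Msln and the mesothelial Nkain4, with Tsc22d3, and the lower gene was H2-Q8, a class I histocompatibility gene. The highest Msln of the 6 libraries was in diestrus replicate 3, which this fit left out. For Upk3b the log2 fold change was 2.31, against 1.10 over all 6 libraries. Whether the mesothelial genes came with the tissue taken or with the phase was not tested.

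The 15 leading genes of each direction were those with the largest fold change among genes whose phases did not overlap. Their adjusted p in limma was 0.933 throughout, so what follows describes these libraries, and errors after ± are standard errors from 3 libraries per phase. The fit over all 90 libraries called 8 of the 15 higher and 9 of the 15 lower genes. It used the same aorta values by which these genes were chosen, so the calls are no separate evidence for them. Estrus replicate 1 was the most extreme of the 6 libraries for 12 of the 15 higher genes and for 13 of the 15 lower genes. Without it, 7 of the 15 higher and 8 of the 15 lower genes still reached a log2 fold change of 1, and their direction is fixed by the choice of genes that do not overlap.

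Fmo2, a flavin monooxygenase that oxidises amines and drugs, was at 203, 61.4 and 83.9 FPKM in estrus against 49.6, 38.8 and 28.9 in diestrus, with a log2 fold change of 1.39, and of 0.89 without estrus replicate 1. Its lowest estrus value lay just above its highest diestrus value.

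The period genes Per1 and Per2, repressors within the clock, were both among the leading genes. Per1 was at 29.5, 46.0 and 29.6 FPKM in estrus against 4.59, 13.5 and 6.78 in diestrus, with a log2 fold change of 2.04 ± 0.38 and an unadjusted p of 0.00162 in limma. Per2 was at 20.5, 20.4 and 17.9 FPKM against 1.67, 10.9 and 7.04, with a log2 fold change of 1.70 ± 0.54. Estrus replicate 1 sat among the other estrus libraries for both genes, and without it the values were 2.14 and 1.66. Without diestrus replicate 1, the lowest library for both, they were 1.73 and 1.07.

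Glucocorticoid-responsive genes were the next group. Fkbp5, a co-chaperone that dampens the glucocorticoid receptor, was at 18.9, 6.40 and 18.9 FPKM in estrus and at 2.55, 2.10 and 3.19 in diestrus, with a log2 fold change of 1.99 ± 0.41, and of 1.76 without estrus replicate 1. Zbtb16, a transcription factor induced by the same receptor, was at 31.6, 5.2 and 18.2 FPKM against 4.31, 3.13 and 3.84, with a log2 fold change of 1.73 ± 0.59, and of 1.21 without it. Estrus replicate 2 was the lowest estrus library for both genes.

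Fam107a, an actin-bundling stress gene, was at 15.5, 6.01 and 9.11 FPKM against 1.70, 2.25 and 2.43 and had the smallest p of the higher leading genes, 0.00152 in limma before adjustment. Errfi1, a feedback inhibitor of the EGF receptor, was at 81.5, 20.4 and 23.2 FPKM against 12.9, 9.99 and 9.04, and its log2 fold change of 1.6 became 0.98 without estrus replicate 1. Mup11, a major urinary protein made mainly by liver, was at 4.15, 7.21 and 4.26 FPKM against 1.02, 0 and 1.75, beside a liver mean of 382.

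Further higher genes were Gm11100, Olfr1033, Zbtb8b, Smco1 and Wdr92. Olfr1033 was at 676, 87.9 and 98.5 FPKM in estrus and at 75.7, 52.6 and 67.9 in diestrus, and Wdr92 at 473, 53.9 and 66.3 against 53.5, 37.3 and 47.1. Olfr1033, Wdr92, Gm11100 and Zbtb8b ranked the 90 libraries alike, with a Spearman's rho of 0.933 to 0.989 between any pair, and all 4 had their highest value of the 90 in this same estrus library. Those libraries share tissues, so the rho is a description. Their log2 fold changes of 1.38 to 1.5 became 0.39 to 0.62 without estrus replicate 1.

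**Figure D2:**
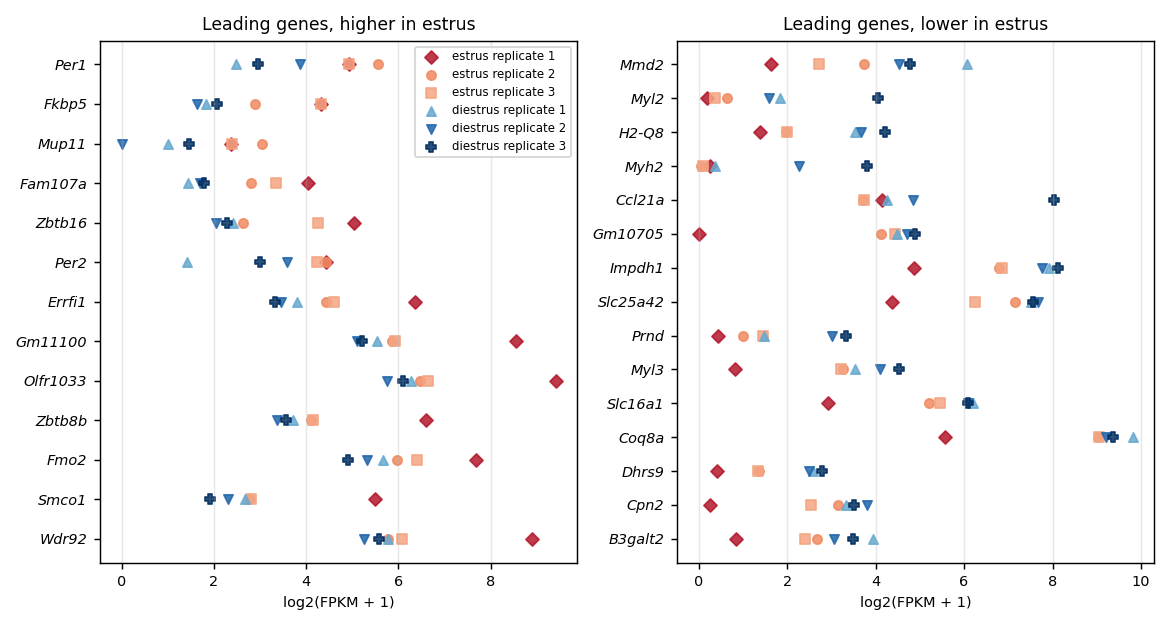
Expression as log2(FPKM + 1) of 13 leading higher and 15 leading lower genes in each of the 6 aorta libraries. Estrus replicate 1 is the highest library in 10 rows of the left panel and the lowest in 13 rows of the right panel.

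Mmd2, a membrane protein of the progestin and adipoQ receptor family, led the lower genes. It was at 2.08, 12.3 and 5.62 FPKM in estrus against 66.5, 22 and 26.5 in diestrus, with a log2 fold change of -2.43 ± 0.63, and of -1.90 without estrus replicate 1. H2-Q8 was at 1.59, 2.94 and 3.00 FPKM against 10.7, 11.6 and 17.6, and its unadjusted p of 0.00023 in limma was the smallest of all genes tested. Reads of H2-Q8 can be shared with near-identical class I genes, so its level is uncertain. The estrus values of H2-Q8 lay far below the lowest diestrus value in all 3 libraries.

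A group of lower genes is well expressed in brown fat. Impdh1, the enzyme that opens guanine nucleotide synthesis, was at 28.0, 109 and 115 FPKM against 241, 217 and 278, with a log2 fold change of -1.77 that was -1.12 without estrus replicate 1, and the BAT mean was 112. Slc25a42, a mitochondrial coenzyme A carrier, was at 19.7, 141 and 75.4 FPKM against 182, 203 and 188, and changed from -1.66 to -0.88. Slc16a1, the lactate carrier MCT1, was at 6.59, 35.8 and 43.2 FPKM against 72.4, 67.4 and 66.5, and changed from -1.59 to -0.79. Coq8a, which acts in ubiquinone synthesis, was at 46.2, 518 and 528 FPKM against 899, 590 and 660, and its -1.59 became -0.43.

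Other lower genes included scarce genes and genes known from muscle and lymphoid tissue. Dhrs9, a retinol dehydrogenase, was at 0.33, 1.58 and 1.51 FPKM against 4.97, 4.60 and 5.88, and its log2 fold change was -1.58 ± 0.30, and -1.27 without estrus replicate 1. Myl2 and Myl3, myosin light chains of ventricle and slow muscle, and Myh2, a fast skeletal myosin, were highest in diestrus replicate 3, where Myl2 reached 15.5 and Myh2 13.0 FPKM. Without that library the log2 fold changes of Myl2 and Myh2 went from -2.09 and -2.01 to -1.31 and -1.18, and that of Myl3 went from -1.62 to -0.81 without estrus replicate 1. The lymphoid chemokine Ccl21a was at 262 FPKM in diestrus replicate 3 and at 12.1 to 28.0 in the other 5, and its log2 fold change of -1.85 was -0.82 without both outlying libraries. Gm10705 is listed at 0 FPKM in estrus replicate 1 and at 16.5 and 20.8 in the other estrus libraries, against 21.3 to 28.5 in diestrus, and its log2 fold change of -1.83 was -0.40 without estrus replicate 1. Prnd, Cpn2 and B3galt2 completed the lower genes, with log2 fold changes of -1.64, -1.56 and -1.52 that were -1.38, -0.70 and -0.96 without estrus replicate 1.

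**Figure D3:**
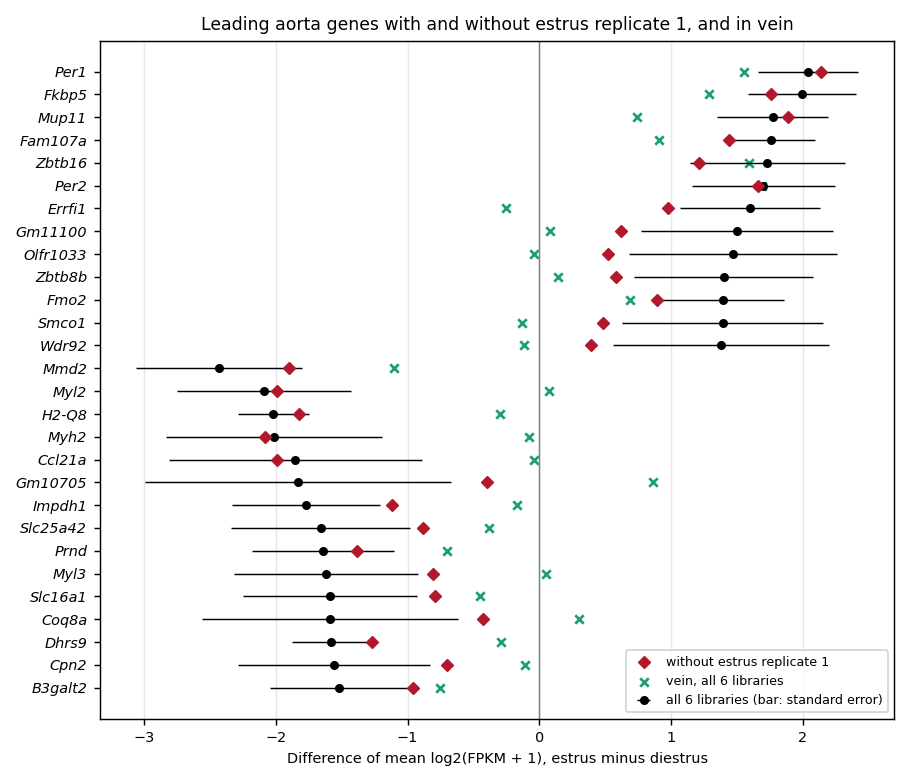
Difference of mean log2(FPKM + 1), estrus minus diestrus, for 28 leading aorta genes over all 6 libraries (black, bars are standard errors), without estrus replicate 1 (red) and for the same genes in vein (green crosses). Coq8a moves from -1.59 to -0.43, while Per1 moves from 2.04 to 2.14.

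The clock genes were then read as a list. All 11 tested genes of the Dbp phase were higher in estrus, with a median log2 fold change of 1.11 beside -0.05 over all tested genes. The median was 1.46 without estrus replicate 1 and 0.55 without diestrus replicate 1, where 10 of the 11 were higher. Per1, Per2 and Nr1d2, which encodes a Rev-erb repressor, did not overlap between the phases, which holds for 2.39% of all tested genes in this direction, and 3 of the 11 had an unadjusted p under 0.05. None was called. Dbp, a transcription factor at the output of the clock, was at 55.6, 254 and 131 FPKM in estrus against 2.51, 70.9 and 60.2 in diestrus, with a log2 fold change of 2.32 ± 1.25, and of 0.90 without diestrus replicate 1. Ciart, a repressor of the clock, was at 4.51, 25.9 and 9.70 FPKM against 1.44, 5.40 and 1.72. Diestrus replicate 1 was the lowest of the 6 libraries for 10 of the 11 genes and estrus replicate 1 for the other, Hlf, whose log2 fold change was 0.06 and -0.23 without diestrus replicate 1.

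Genes of the opposite clock phase varied most within a phase. Arntl, which encodes Bmal1, was at 7.13, 0.19 and 0.99 FPKM in estrus and at 15.4, 2.47 and 4.62 in diestrus, and Npas2, its partner, was at 8.35, 0.38 and 0.37 against 10.4, 0.93 and 1.83. Both were highest in diestrus replicate 1 and next highest in estrus replicate 1. Of the 6 genes of this list, 4 were lower in estrus, with a median of -0.38, and 3 with a median of 0.05 without diestrus replicate 1. Since the hour at which each mouse was dissected is not given, phase of the cycle and time of day cannot be told apart for these genes. The same holds for the glucocorticoid-responsive genes and for every other gene here.

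Sequences are shown for Per1 and Ciart, 2 clock genes with large fold changes, and for Fkbp5, which leads the glucocorticoid-responsive genes, each with the canonical E-box, CACGTG, in its promoter. The windows are the 250 bases before the start of transcription in RefSeq, build GRCm38.p6, read 5′ to 3′ on the strand of the gene, with CACGTG in capitals: Per1 at chr11:69098699-69098948 on the plus strand, Ciart at chr3:95882229-95882478 on the minus strand, and Fkbp5 at chr17:28486150-28486399 on the minus strand.
Per1: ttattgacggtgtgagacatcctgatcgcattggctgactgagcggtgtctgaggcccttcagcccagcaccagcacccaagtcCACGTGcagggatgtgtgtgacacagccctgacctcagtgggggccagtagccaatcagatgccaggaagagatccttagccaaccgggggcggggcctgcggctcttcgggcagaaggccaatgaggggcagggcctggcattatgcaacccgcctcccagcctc
Ciart: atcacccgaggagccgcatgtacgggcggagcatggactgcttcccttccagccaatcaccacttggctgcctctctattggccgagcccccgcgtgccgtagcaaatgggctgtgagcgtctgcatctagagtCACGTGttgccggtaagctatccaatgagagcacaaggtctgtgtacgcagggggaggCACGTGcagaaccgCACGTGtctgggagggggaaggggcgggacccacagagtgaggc
Fkbp5: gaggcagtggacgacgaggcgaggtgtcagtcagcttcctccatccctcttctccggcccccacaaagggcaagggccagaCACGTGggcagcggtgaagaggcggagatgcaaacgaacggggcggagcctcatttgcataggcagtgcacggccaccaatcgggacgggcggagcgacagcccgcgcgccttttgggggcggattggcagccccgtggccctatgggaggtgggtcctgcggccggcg
Ciart holds 3 copies, and Per1 and Fkbp5 hold 1 each. CACGTG, which reads the same on both strands, occurred in 6.02% of all 32851 RefSeq windows of this length. It was found for 4 of the 10 Dbp-phase genes that have a window (Per1, Ciart, Tef and Bhlhe41). Counted by window, as the 6.02% is, it was in 5 of their 12. The D-box TTATGCAA, bound by Dbp, was found in Per1 and in 0.694% of all windows, and TTATGTAA in Per3 and in 0.819%, each searched on both strands. The full palindrome of the glucocorticoid receptor, also searched on both strands, occurred in none of the windows of these genes and in 0.00913% of all windows.

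The glucocorticoid and metal list, 12 genes, had 9 higher and 3 lower in estrus, with a median of 0.59, and of 0.40 without estrus replicate 1. Of the 12, 5 lay wholly higher in estrus and 5 had an unadjusted p under 0.05 in that direction, beside 2.39% and 0.574% of all tested genes. This list too was chosen with earlier results of these data known, so these counts are a description only. Tsc22d3, which encodes the anti-inflammatory protein GILZ, was at 26.7, 47.8 and 62.6 FPKM against 15.0, 16.9 and 20.3, a log2 fold change of 1.27 ± 0.32. In the unplanned fit without estrus replicate 1 and diestrus replicate 3 it was 1.72 (adjusted p = 0.0383 in limma). Klf9, a target of the same receptor, was at 86.8, 46.4 and 45.7 FPKM against 28.9, 35.4 and 27.7, and its log2 fold change of 0.88 was 0.58 without estrus replicate 1. Of the 3 lower genes, 2 had an unadjusted p under 0.05, Angptl4 and Lcn2, beside 2.53% of all tested genes. Lcn2, the iron-binding lipocalin of neutrophils, lay wholly lower, at 1.93, 2.74 and 4.5 FPKM against 6.06, 5.78 and 20. Angptl4 and Pdk4, list members that fasting also induces, went the other way, with log2 fold changes of -1.93 and -1.72. Without estrus replicate 1 these were -1.45 and -0.70. Angptl4 was at 23.1, 117 and 33.9 FPKM against 221, 112 and 216, so its phases overlapped. The glucocorticoid receptor Nr3c1 itself was at 21.1 to 25.1 FPKM in all 6 libraries.

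**Figure D4:**
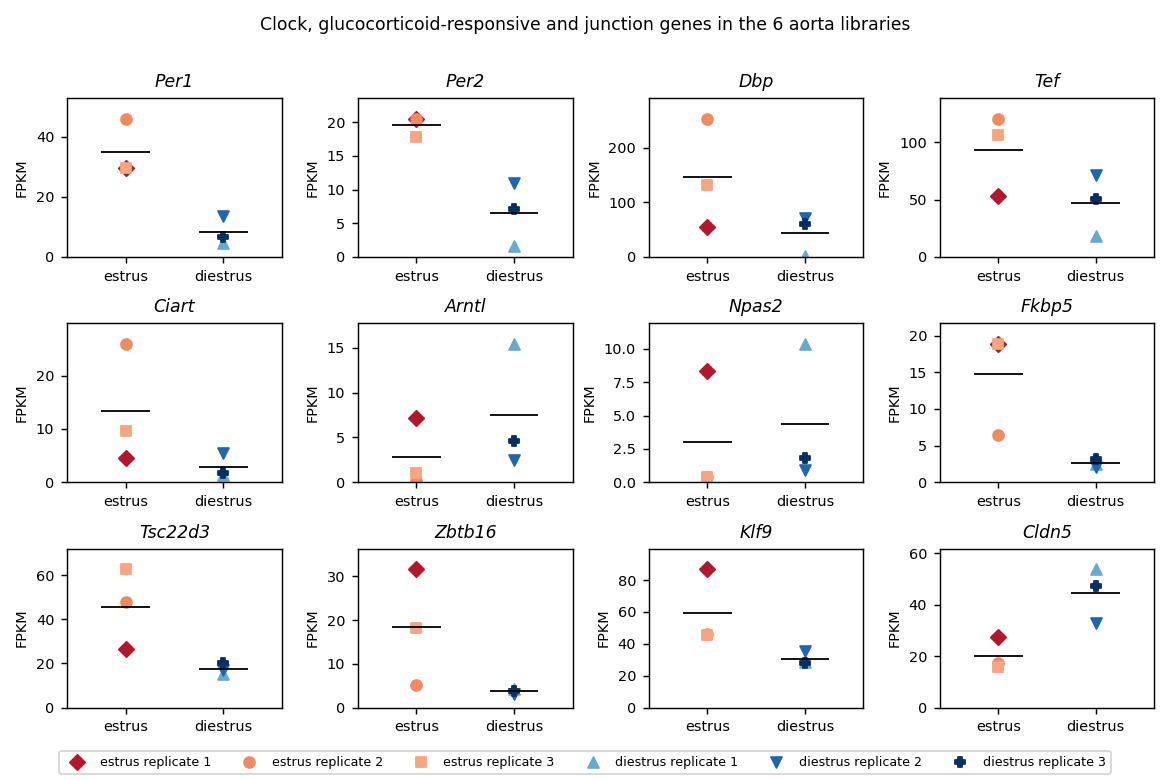
FPKM of 12 genes in the 6 aorta libraries, with a line at the mean of each phase and linear axes from 0. Per1, Per2, Fkbp5, Tsc22d3, Zbtb16 and Klf9 lie higher in every estrus library than in any diestrus library, Cldn5 lies lower, and Arntl and Npas2 overlap.

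Endothelial genes were lower in estrus as a list. All 12 had a negative log2 fold change, with a median of -0.36, 8 did not overlap between the phases, beside 9.54% of all tested genes, and 2 had an unadjusted p under 0.05. The median was -0.31 without estrus replicate 1, where 10 of the 12 were lower. In that fit the median over all tested genes was -0.11, and 29.2% of them were higher. Cldn5, a claudin that seals the junctions of endothelial cells, was at 27.5, 17.4 and 15.6 FPKM in estrus against 53.7, 32.9 and 47.3 in diestrus, with a log2 fold change of -1.12 ± 0.28, and of -1.36 without estrus replicate 1. Tek, the angiopoietin receptor Tie2, was at 9.19, 15.2 and 13.0 FPKM against 19.0, 17.8 and 19.5. Kdr, the main VEGF receptor, was at 5.14, 28.1 and 27.0 FPKM against 47.9, 40.4 and 41.5, a log2 fold change of -1.37 that was -0.63 without estrus replicate 1, while Pecam1, present on all endothelium, was at 83.4 to 108 FPKM in both phases. None of these was called. Of the 10 fibroblast genes, 9 were lower with a median of -0.23 and 5 lay wholly lower. All 10 were lower without estrus replicate 1, with a median of -0.16, near the -0.11 over all tested genes in that fit. Pdgfra, a growth factor receptor of fibroblasts, was at 5.09, 5.82 and 5.81 FPKM against 7.68, 7.32 and 7.08.

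Smooth muscle and matrix lists changed with estrus replicate 1. Of 14 contractile genes, 13 were higher in estrus with a median of 0.82, and without that library 6 were higher and 8 lower with a median of -0.03. The elastic fibre list went from a median of 0.34 to -0.30, and 15 matrix collagens from 0.09 to -0.35, with 14 of the 15 then lower. Of all tested genes, 29.2% were then higher, with a median of -0.11. Col5a3, a fibrillar collagen chain of muscle and fat, did not overlap with all 6 libraries, at 2.39, 4.04 and 3.49 FPKM against 11.9, 7.44 and 9.90, with a log2 fold change of -1.32 ± 0.23. It was -1.15 without estrus replicate 1, at an adjusted p of 0.327 in limma.

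The fat, heart and mitochondrial lists did the same in the other direction. Their medians over all 6 libraries were -0.89 for white adipocytes, -1.0 for brown adipocytes, -0.63 for cardiomyocytes and -0.85 for mitochondrial respiration. They became 0.09, -0.08, 0.61 and -0.07 without estrus replicate 1. The list of fatty acid and sterol synthesis went from -0.09 to 0.43: Fasn, fatty acid synthase, was at 66.0, 1239 and 1983 FPKM in estrus and at 361, 858 and 359 in diestrus, and Scd1, the stearoyl-CoA desaturase, at 191, 3043 and 4545 against 1086, 3233 and 1792. Hmgcs1, an enzyme of cholesterol synthesis, did not overlap and was lower, at 23.3, 40.2 and 38.7 FPKM against 79.1, 55.2 and 61.1.

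The skeletal muscle fibre list had a low median in estrus. Of 13 tested genes, 12 were lower in estrus, beside 57.4% of all tested genes, with a median of -1.80. In this direction 6 had an unadjusted p under 0.05 in limma, beside 2.53% of all tested genes. Only 1 lay wholly lower, beside 9.54% of all tested genes. Acta1, the actin of skeletal muscle, was at 10.6, 0.5 and 1.95 FPKM in estrus against 10.0, 43.0 and 137 in diestrus, with a log2 fold change of -3.45 ± 1.10, so estrus replicate 1 and diestrus replicate 1 were alike. Tnnt3, a fast troponin, was at 10.3, 1 and 3.46 FPKM against 6.88, 28.8 and 100.5. The median was -2.08 without estrus replicate 1, -1.25 without diestrus replicate 3 as well, and -0.02 in vein, and none was called. It was -0.99 without diestrus replicate 3 alone. The median of the 7 tested airway genes, -2.66, was -0.04 without that library. The means in skeletal muscle were 26088 FPKM for Acta1 and 22754 for Tnnt3, and whether muscle came with the tissue taken was not tested.

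No receptor that sets vascular tone was called. All 10 tested members of the adrenergic receptor list, receptors with their kinases and arrestins, were lower in estrus with a median of -0.39, and without estrus replicate 1 it was -0.29 with 7 lower. Of all tested genes, 57.4% were lower with all 6 libraries. Without estrus replicate 1, 29.2% of all tested genes were higher and their median was -0.11, so the 7 of 10 is no result about these genes. Adrb3, the receptor of fat cells, was at 16.2, 92.1 and 69.1 FPKM against 130, 108 and 119, with a log2 fold change of -1.31 that was -0.57 without estrus replicate 1, and Adra1d, an alpha-1 receptor of arterial smooth muscle, at 11.7, 11.4 and 11.6 against 20, 16.6 and 13.1, a log2 fold change of -0.46. Of 22 tested genes of angiotensin, endothelin and nitric oxide signalling, 14 were higher and 8 lower with a median of 0.12, and without estrus replicate 1, 11 were higher and 11 lower with a median of -0.04. Nos3, the endothelial nitric oxide synthase, was at 18.6, 13.1 and 16.3 FPKM against 18.9, 17.9 and 18.2, and Nos2, the inducible form, at 1.69, 3.53 and 3.67 against 5.57, 6.72 and 7, the only member of the list with an unadjusted p under 0.05. Agtr1a, the angiotensin II receptor, was at 1.48 FPKM in estrus replicate 1 and at 6.71 to 11.4 in the others.

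Among steroid hormone receptors, Esr1, which encodes the estrogen receptor alpha, was at 9.54, 11.5 and 10.5 FPKM in estrus and at 11.2, 9.05 and 7.63 in diestrus, so the phases overlapped. The progesterone receptor Pgr was at 4.10 FPKM in estrus replicate 1 and at no more than 0.41 elsewhere, and Esr2 was at 1.5 against at most 0.20, in the library that held the ovarian genes. The ovary mean was 1.03 FPKM for Pgr and 36.4 for Esr2, so Pgr in this library lay above the ovary mean and Esr2 below it. The source of either transcript was not tested. Of the 18 tested genes of the estrogen-responsive list, 6 were higher and 12 lower, with a median of -0.13, and of -0.25 without estrus replicate 1. Rasd1, a Ras-like protein, was at 16.4, 41.0 and 54.3 FPKM against 106, 73.2 and 68.1, with a log2 fold change of -1.25 that was -0.76 without estrus replicate 1, and Hspb8, a small heat shock protein, at 75.3, 66.6 and 75.4 against 52.1, 62.1 and 41.4.

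The immune lists below were lower in estrus with all 6 libraries, and diestrus replicate 3 was the highest library for most. The medians were -0.48 for 27 chemokines and cytokines, -0.87 for 8 genes of MHC class II, -0.91 for 8 T cell genes and -1.32 for 4 neutrophil genes. Without estrus replicate 1 and diestrus replicate 3 they were -0.04, 0.21, -0.06 and -0.48. Il4ra, the receptor of interleukin-4, was an exception with tight values, at 7.56, 7.19 and 8.21 FPKM in estrus against 16.1, 14.6 and 14.7 in diestrus, and its log2 fold change of -0.90 ± 0.13 was -0.91 without both libraries. Its adjusted p in limma was 0.933 with all 6 and 0.109 in the unplanned fit without both. The immediate early list had 19 of 20 genes higher, with a median of 0.48 that was 0.05 without estrus replicate 1, and Ier3 was the 1 member with an unadjusted p under 0.05, at 26.3, 15.1 and 26.4 FPKM against 7.61, 12.2 and 11.6.

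**Figure D5:**
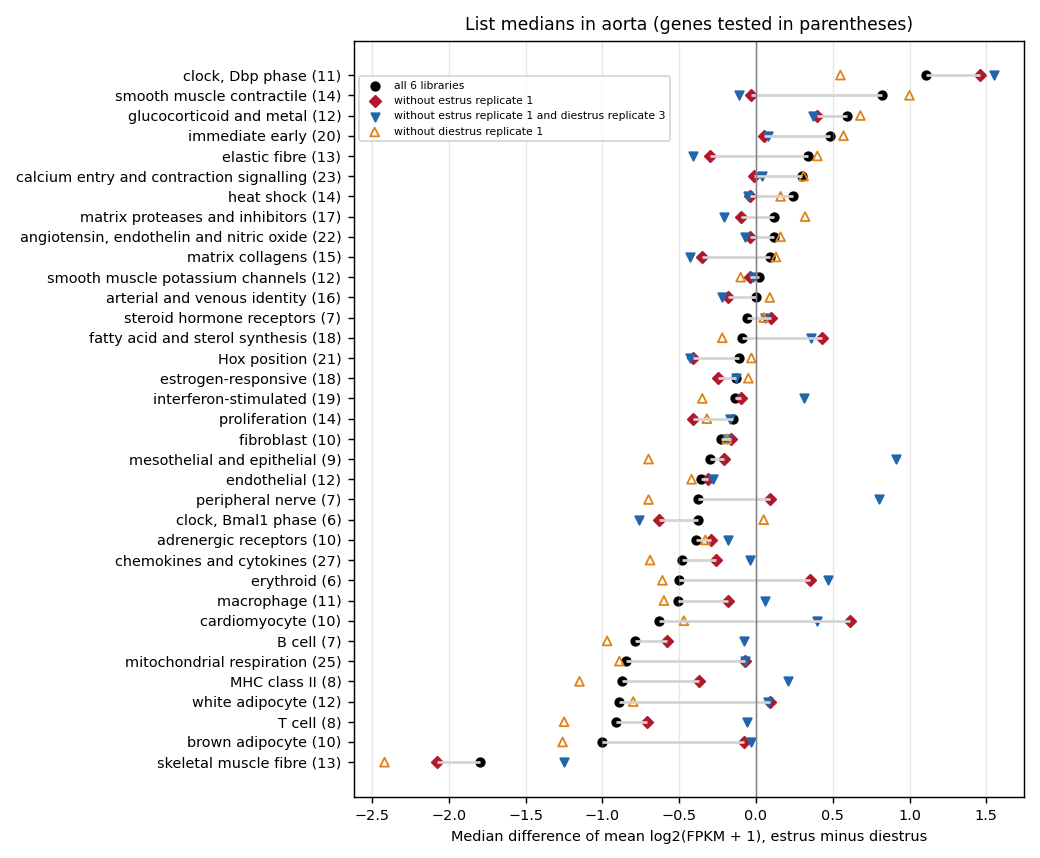
Median difference of mean log2(FPKM + 1), estrus minus diestrus, for each marker and function list with 6 or more tested genes, over all 6 libraries and with libraries left out; lists chosen after the aorta values were seen are not plotted. The Dbp-phase clock list is at 1.11 and falls to 0.55 without diestrus replicate 1, and smooth muscle goes from 0.82 to -0.03 and white adipocytes from -0.89 to 0.09.

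The aorta was set beside vein, the other vessel of the series, by the difference between their phase differences. Over 13225 genes limma called none (0%) at an adjusted p of at most 0.05, and 432 (3.27%) had an unadjusted p under 0.05. Of the leading genes, 11 of the 15 higher and 11 of the 15 lower had the same direction in vein, and 3 and 2 of them also did not overlap there. Another lower gene, Gm10705, did not overlap there in the opposite direction. No share over all tested genes is given beside these counts, so they are a description only. Per1 was at 42.4, 16.1 and 33.9 FPKM in vein estrus and at 5.17, 15.9 and 8.96 in vein diestrus, and Fkbp5 at 9.42, 14.1 and 26.4 against 6.08, 4.61 and 6.46, without overlap. Dbp was at 252, 125 and 134 FPKM against 4.60, 82.4 and 73.9, so the low diestrus replicate 1 and the 2 higher diestrus libraries were seen in both vessels, whereas no vein estrus library was as low as the 55.6 of aorta estrus replicate 1. Arntl was at 0.99 to 1.87 FPKM in vein estrus against 3.76 to 12.9 in diestrus.

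Tsc22d3 and Cldn5 also did not overlap in vein. Tsc22d3 was at 65.3, 37.1 and 97.1 FPKM against 18.9, 28.5 and 24.2, and Cldn5 at 45.6, 21.3 and 37.4 against 71.8, 71.5 and 65.1. Their log2 fold changes in vein were 1.36 and -1.04, beside 1.27 and -1.12 in aorta. The fold changes of Olfr1033, Wdr92, Smco1 and Coq8a in vein were -0.04, -0.12, -0.13 and 0.30. The libraries of both vessels were taken from mice of the same phases, and if they share mice, vein is no independent repeat.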

How the data were processed

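Aorta mRNA from 3 mice in estrus and 3 in diestrus was sequenced on a BGISEQ-500. The authors filtered reads with SOAPnuke, aligned them with Bowtie2 2.2.5 to GRCm38.p5 and deposited FPKM estimated by RSEM 1.2.8, without counts. FPKM is a share of the library, so RNA of 1 abundant cell type lowers the values of the others. Of the 20414 Entrez identifiers, 20265 were given symbols from RefSeq (GRCm38.p6). Tissue, phase and replicate came from the sample labels.

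Genes whose 6 aorta values averaged 1 FPKM or more were compared as log2(FPKM + 1) with limma 3.58.1 in R 4.3.3 (intensity trend, no block, Benjamini-Hochberg adjustment), which understates changes of low genes. A call needed an adjusted p of at most 0.05 and an absolute log2 fold change of at least 1. Mice are taken as the replicates. The difference from vein was tested as an interaction over 12 libraries. Other work used Python 3.11.15 with pandas 2.3.3, numpy 2.4.6 and matplotlib 3.10.9.

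On simulated data with all 6 libraries the procedure called 46% of genes changed by 1.5 on the log2 scale and 83.5% of those changed by 3. Without estrus replicate 1 it called 79% and 95.5%. The simulated noise was drawn separately for each gene, with no shift shared by a whole library such as that of estrus replicate 1. These shares therefore do not give the power of the real comparison.

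Depth was approximated from the FPKM steps of 923 genes of 300 to 1100 bases with 1 transcript. Only 54.7% to 66.4% of their low values were whole to within 0.15 fragments, so counts were not recovered and no count test was run. The intervals that need counts are therefore not given.

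Named genes are the 15 with the largest fold change in each direction among genes whose phases did not overlap, each also without estrus replicate 1, any called gene, the most abundant members of a list, and list members that did not overlap at an unadjusted p under 0.05. Some genes that meet this rule are not reported here. Genes given for single libraries were chosen after their values were seen. The members and lists were chosen with earlier results of these data known, and the ovarian, airway, lymph node and mesothelial lists after the aorta values were seen.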

Additional observations from a re-analysis of the deposited data

Results flagged for a closer look

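The phases of Gm10705 narrowly did not overlap in either vessel, with estrus lower in aorta and higher in vein. Its estrus values in aorta were 0, 16.5 and 20.8 FPKM against 21.3, 25.1 and 28.5 for diestrus, with a log2 fold change of -1.83. In vein they were 23.1, 38 and 24.5 FPKM against 19.2, 7.87 and 21.3, with a log2 fold change of 0.86. The difference between the vessels was -2.69 on the log2 scale and did not pass limma's test of the interaction (adjusted p = 0.696). Without aorta estrus replicate 1, the library listed at 0, the aorta log2 fold change was -0.40.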

How the results depend on the processing

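Genes called numbered 0 in 16 of the 20 planned and added alternative fits, and also with no limit on the fold. The exceptions were 106 (21 higher, 85 lower) in 1 fit of all 90 libraries, where the spread is estimated mostly from other tissues, 1 with the white adipocyte list as a covariate, and 0 to 6 when libraries were left out. Genes higher by fold numbered 151 with a pseudocount of 0.1, 144 after rescaling to the same sum, 127 after quantile normalization, 586 with the skeletal muscle list as a covariate, and 71 to 338 when libraries were left out. Genes lower by fold numbered 496, 273, 191 and 922 under these 4, 87 with sample weights, 95 with the white adipocyte covariate, and 49 to 681 when libraries were left out. Leaving out estrus replicate 2, estrus replicate 3 or diestrus replicate 1 raised the higher count to 338, 306 and 136. The sample weight of estrus replicate 1 was 0.078 and those of the others 1.51 to 2.02. The direction of the 30 leading genes is fixed by their choice when 1 library is left out. Ccl21a changed to 0.28 with the skeletal muscle covariate, and Upk3b to -0.07. The cause of these changes was not tested. With a replicate block in the fit, limma called 0 genes, and 81 were higher and 265 lower by fold. Without estrus replicate 1 under the block, 0 were called, and 69 were higher and 150 lower. The numbers were not shown to pair the libraries: deviations of same-numbered libraries correlated at 0.22, 0.23 and 0.00, and estrus replicate 3 correlated best with diestrus replicate 2. The interaction with vein gave 0 calls in its alternatives, the block included, except 1 (Upk3b) without aorta estrus replicate 1, so leaving out libraries gave 0 to 1. Precision is limited by 3 libraries per phase, and values near 0 FPKM rest on few fragments.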

Other observations

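Genes of the Hox clusters, which mark position along the body axis, were mostly lower in estrus once estrus replicate 1 was left out. Of 21 tested, 15 were lower with all 6 libraries (median log2 fold change -0.11) and 20 without it (median -0.41), but 7 without estrus replicate 2 (median 0.04), with none called. Over all tested genes, 57.4% were lower with all 6 libraries. Without estrus replicate 1, 29.2% of them were higher, with a median of -0.11. Hoxc6 was at 12.2, 7.25 and 9.92 FPKM in estrus and at 16.4, 18.2 and 13.7 in diestrus, and Hoxa5 at 23.1, 24.6 and 22.8 against 29.0, 36 and 24.2. Each library's stretch of aorta is not given, so position and phase cannot be told apart.

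Peripheral nerve genes varied more between libraries than between phases. Mbp, a basic protein of myelin, was at 5.66, 55.5 and 25.6 FPKM in estrus and at 16.7, 18.3 and 111 in diestrus, beside a vein mean of 157. Haemoglobin genes were lowest in estrus replicate 1, with Hba-a1 at 257 FPKM there and at 1081 to 2071 in the other 5. The 23 tested genes of calcium entry and contraction signalling had 17 higher in estrus, with a median of 0.30 that was -0.01 without estrus replicate 1. Of the 12 smooth muscle potassium channel genes 7 were higher, with a median of 0.02, and 4 without estrus replicate 1, with a median of -0.04.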
